A study of Mus musculus with 6 samples.

Results

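The 9 genes described here encode proteins that mark the surface of intestinal epithelium, and they were followed in organoids of mouse pancreatic tumours before and after loss of the wild-type Trp53 allele. They are Gpa33, Lypd8, Gucy2c, Alpi, Cdh17, Tspan8, Lgals4 and Ceacam1, with Epcam, a surface protein shared by most epithelia, as the gene of comparison. They were 9 of 53379 annotated genes, matched by symbol. They were chosen because most of them were higher after the loss in these same libraries, so their fold changes between the groups are a description and were not tested.

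Total RNA was sequenced from 6 organoid cultures of KPC tumours, which are pancreatic tumours of engineered mice that carry a mutant p53 allele, here of the strain C57/Bl6. Heterozygous organoids (n = 3) had the alleles Trp53LSLR172H/+ and Pdx1-Cre. LOH organoids (loss of heterozygosity, n = 3) differed in Trp53LSLR172H/-. Thus both groups carried R172H on one Trp53 allele and the Cre recombinase, which the Pdx1 promoter drives in the pancreatic lineage, and the comparison is of the remaining wild-type allele of Trp53. Each group had 1 library from each of the organoid lines 6, 23 and 34, kept in domes of matrigel, a basement membrane gel, under a complete organoid medium. The suffix Nut closes each LOH sample's description and none of the heterozygous ones. The labels do not explain it, and its effect cannot be told apart from that of genotype. No label states that the cultures were independent beyond the line number, so p-values measure only the spread between these samples.

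In the gut, these proteins sit on the absorptive and mucus-secreting cells that face the lumen, where they hold cells together, sense peptides, detoxify bacterial products or bind sugars. Several of them are scarce in the normal pancreas, and pancreatic tumours of gastrointestinal character are known to take several of them up. Gucy2c, Gpa33, Cdh17 and Ceacam family members are studied as targets on gastrointestinal tumours because they lie on the outside of the cell.

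Library totals ran from 13680458 to 27917277 expected counts, which are the read counts per gene that the RSEM program estimates, and totals of the groups overlapped. The measure used below is CPM, the count scaled to a common library total, with library totals adjusted by the TMM method. A count of 3 was worth 0.1 to 0.223 CPM, the level below which these libraries do not separate a gene from 0. Trp53 itself was at 77.3, 76.3 and 86.5 CPM in heterozygous lines 6, 23 and 34 and at 73.5, 52.5 and 47.4 CPM in LOH lines 6, 23 and 34, and its adjusted p was 0.227 (edgeR quasi-likelihood test). Gene totals do not distinguish the alleles. Of 10 markers of pancreatic duct and simple epithelium, 10 were measured and 0 passed the test in edgeR. Over all tested genes 5.21% passed it, so 0 of 10 is near that share. The summed level of the 10 was 5607 to 6284 CPM in heterozygous and 5044 to 11138 CPM in LOH libraries. Among the 10, 1 had an unadjusted p under 0.05, and DESeq2 called 1, where it called 14.1% of the genes it tested.

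For Alpi, Lypd8, Gpa33 and Epcam, the 250 bases before the start site show the regulatory sequence of 3 genes that were low in heterozygous organoids next to that of the comparison gene, which was abundant in both groups. Sequences are from RefSeq on GRCm38.p6, are written 5′ to 3′ on the strand of the gene, and have in capitals the letters that match CNATAAA (a form of the site of CDX factors) or CAAAGTNCA (a form of the site of HNF4 factors) on either strand.
Alpi, chr1:87101607-87101856, minus strand: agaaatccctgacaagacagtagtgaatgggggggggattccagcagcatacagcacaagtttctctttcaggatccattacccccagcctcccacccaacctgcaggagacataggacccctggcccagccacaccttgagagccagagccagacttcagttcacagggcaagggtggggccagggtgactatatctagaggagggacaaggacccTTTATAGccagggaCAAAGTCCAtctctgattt
Lypd8, chr11:58378782-58379031, plus strand: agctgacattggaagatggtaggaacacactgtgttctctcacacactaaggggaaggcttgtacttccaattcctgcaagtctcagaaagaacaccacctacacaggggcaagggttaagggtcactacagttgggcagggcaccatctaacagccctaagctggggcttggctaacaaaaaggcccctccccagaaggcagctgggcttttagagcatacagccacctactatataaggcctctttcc
Gpa33, chr1:166129971-166130220, plus strand: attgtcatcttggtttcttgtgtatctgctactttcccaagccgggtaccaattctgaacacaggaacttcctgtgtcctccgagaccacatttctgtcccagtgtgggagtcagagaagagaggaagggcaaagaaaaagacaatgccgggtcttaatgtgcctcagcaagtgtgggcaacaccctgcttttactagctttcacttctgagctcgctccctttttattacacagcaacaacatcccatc
Epcam, chr17:87635729-87635978, plus strand: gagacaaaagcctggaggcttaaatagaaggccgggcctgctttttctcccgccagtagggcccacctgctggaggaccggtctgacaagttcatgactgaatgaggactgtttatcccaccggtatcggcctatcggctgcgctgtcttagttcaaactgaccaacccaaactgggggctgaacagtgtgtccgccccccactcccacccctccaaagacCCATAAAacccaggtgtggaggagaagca
The Alpi promoter held 1 match to the CDX letters, from base -33 to -27, and 1 to the HNF4 letters, from base -19 to -11, counted from the start site. Epcam held 1 match to the CDX letters, from base -29 to -23. In both genes the CDX match lies where TATA boxes usually lie and its letters resemble one. The windows of Lypd8 and Gpa33 shown here held neither. The letters were searched from 250 bases before to 50 bases after each start, in these genes as in all promoters, and no match in these genes lay after the start. Over all 32851 promoters in the table, 10.9% held the CDX letters and 1.41% the HNF4 letters, and a match is a description of letters, not a site that was shown to be bound. Ceacam1, Lgals4, Tspan8 and a second start of Lypd8 were also searched. The window of the second Lypd8 start, which has no GENCODE start within 100 bases, held a match to the letters AGATAA, a form of the site of GATA factors that 11.2% of all promoters held. It also held the letters GTTAAT, a partial site of HNF1 factors, which 7.1% of all promoters held. The short letters CACCC (KLF factors) were found in 4 of the 8 windows and in 57.5% of all promoters.

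Gpa33 encodes the A33 antigen, an immunoglobulin-type glycoprotein of the intestinal epithelial membrane (ENSMUSG00000000544.14, GRCm38 chr1:166130238-166166510). It stood at 2.84, 2.0 and 4.77 CPM in heterozygous lines 6, 23 and 34, and at 88.9, 70.7 and 109.2 CPM in LOH lines 6, 23 and 34. All LOH libraries were well above all heterozygous ones, and the LOH libraries were close to each other, with a ratio of highest to lowest of 1.54. Within lines, the LOH level was 31.3-fold (95% interval 25.2 to 39.5), 35.3-fold (24.2 to 53.7) and 22.9-fold (19.3 to 27.3) the heterozygous one. These exact intervals, like those that follow, take in counting error alone, and without molecular identifiers each read is not a separate molecule. The fitted log2 fold change was 4.78 (SE 0.39). In these bulk cultures a gain of cells that make a transcript and a gain of transcript per cell cannot be told apart.

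Gucy2c encodes guanylyl cyclase C, the receptor that turns guanylin peptides into a cyclic GMP signal in gut epithelium (ENSMUSG00000042638.14, chr6:136697284-136781765). Its levels were 3.0, 0.371 and 2.1 CPM in heterozygous lines 6, 23 and 34 and 113.2, 27.1 and 37.5 CPM in LOH lines 6, 23 and 34. The groups did not overlap, and line 6 was highest in both. The within-line ratios were 37.7 (30.5 to 47.1) in line 6, 73.0 (31.1 to 225) in line 23 and 17.8 (13.8 to 23.4) in line 34. The ratio of line 23 rests on 5 heterozygous counts. The log2 fold change was 4.95 (SE 0.84), and 4.03 without LOH line 6.

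Lypd8 encodes a glycolipid-anchored Ly6-type protein that keeps flagellated bacteria away from the colon surface (ENSMUSG00000013643.13, chr11:58379043-58390728). Its expected counts were 18, 0 and 3 in heterozygous lines 6, 23 and 34 and 1421, 152 and 329 in LOH lines 6, 23 and 34. In CPM the heterozygous libraries were at 0.601, 0 and 0.1 and the LOH libraries at 82.7, 5.74 and 15.3. Heterozygous lines 23 and 34 were at or below the floor of 3 counts and line 6 was above it, while all LOH libraries had a clear signal. The LOH libraries themselves spanned a ratio of highest to lowest of 14.4. LOH line 6 was 138-fold (86.8 to 233) and LOH line 34 was 153-fold (51.9 to 746) its heterozygous partner. LOH line 23 was at least 25.8-fold higher than its partner, whose 0 counts were set to the floor of 3 counts per library. The fitted log2 fold change of 6.98 (SE 1.38) depends on how 0 counts are treated and is not a bound. It was 5.25 without LOH line 6 and 8.88 without heterozygous line 6.

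Alpi encodes intestinal alkaline phosphatase, a brush-border enzyme that removes phosphate from bacterial lipopolysaccharide (ENSMUSG00000079440.2, chr1:87098002-87101606). It had 9, 0 and 0 counts in heterozygous lines 6, 23 and 34 and 1108, 13 and 70 counts in LOH lines 6, 23 and 34. LOH line 6 stood far above the others at 64.5 CPM, against 3.26 CPM in LOH line 34 and 0.491 CPM in LOH line 23, a ratio of highest to lowest of 131. The ratio within line 6 was 215 (113 to 471). Against the floor of 3 counts per library, LOH line 34 was at least 32.5-fold higher and LOH line 23 at least 2.2-fold higher. The fitted log2 fold change was 7.53 (SE 2.14), 3.92 without LOH line 6 and 11.94 without heterozygous line 6, so line 6 sets its size. The mouse copies of this enzyme family were read alongside, since 2.4% of the 50-base words of Alpi also occur in another gene, mostly Akp3. Akp3 had 16.4 CPM in LOH line 6 and at most 0.466 CPM in every other library, and Alppl2 reached at most 0.0931 CPM. Neither had enough counts to be tested.

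Lgals4 encodes galectin-4, a sugar-binding protein that has no membrane anchor and binds glycoproteins at the apical surface of gut epithelium (ENSMUSG00000053964.17, chr7:28833854-28841708). It was already abundant before the loss, at 77.4, 194 and 140 CPM in heterozygous lines 6, 23 and 34, and stood at 682, 461 and 801 CPM in LOH lines 6, 23 and 34. The groups did not overlap. The within-line ratios were 8.81 (8.42 to 9.21), 2.38 (2.28 to 2.48) and 5.74 (5.55 to 5.94), and the log2 fold change was 2.24 (SE 0.38). The order of the ratios is the reverse of the order of the heterozygous levels, with line 6 lowest at first and changing most. Because the heterozygous level is the divisor of each ratio, a low start raises the ratio by itself.

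Ceacam1 encodes a homophilic adhesion molecule of epithelia and leukocytes (ENSMUSG00000074272.10, chr7:25461707-25477603). Its levels were 47.6, 70.9 and 39.0 CPM in heterozygous lines 6, 23 and 34 and 271, 199 and 791 CPM in LOH lines 6, 23 and 34. Here LOH line 34 was the highest library, and the groups did not overlap. The ratios were 5.7 (5.37 to 6.05) in line 6, 2.81 (2.63 to 3.02) in line 23 and 20.3 (19.1 to 21.6) in line 34. The log2 fold change was 3.0 (SE 0.57), and 1.99 with line 34 left out of both groups. Of the 50-base words of the main Ceacam1 transcript, 49.5% also occur in another gene, nearly all of them in Ceacam2, but Ceacam2 was given at most 0.151 CPM in any library. An antisense gene, 4732471J01Rik, overlaps Ceacam1. The library kit marks strand, but the strand setting used for counting is not given in the sources used here.

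Cdh17 and Tspan8 were among the abundant surface genes in both groups. Cdh17, or liver-intestine cadherin, joins intestinal epithelial cells (ENSMUSG00000028217.11, chr4:11758147-11817895). Its levels were 127, 232 and 242 CPM in heterozygous lines 6, 23 and 34 and 510, 253 and 599 CPM in LOH lines 6, 23 and 34. The LOH libraries were all higher, but LOH line 23 was only 1.09-fold (1.05 to 1.14) its partner, against 4.03-fold (3.88 to 4.19) in line 6 and 2.48-fold (2.41 to 2.55) in line 34. The log2 fold change was 1.18 (SE 0.39).

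Tspan8 encodes a tetraspanin, a membrane protein that organises other surface proteins into patches (ENSMUSG00000034127.15, chr10:115816832-115849893). It stood at 260, 277 and 260 CPM in heterozygous lines 6, 23 and 34 and at 238, 383 and 394 CPM in LOH lines 6, 23 and 34. It was the only one of the 9 genes whose groups overlapped in CPM, because LOH line 6 was below every heterozygous library. The within-line ratios were 0.915 (0.881 to 0.95), 1.38 (1.33 to 1.43) and 1.52 (1.47 to 1.57). The log2 fold change of 0.35 (SE 0.23) was small beside this spread. An antisense gene, 4930422I22Rik, overlaps Tspan8.

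Epcam, the shared epithelial adhesion molecule (ENSMUSG00000045394.8, chr17:87635979-87651129), was at 272, 333 and 311 CPM in heterozygous lines 6, 23 and 34 and at 443, 365 and 681 CPM in LOH lines 6, 23 and 34. It was higher in each LOH library in CPM, by 1.63-fold (1.58 to 1.68), 1.09-fold (1.06 to 1.13) and 2.19-fold (2.13 to 2.25). The log2 fold change was 0.7 (SE 0.26).

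**Figure D1:**
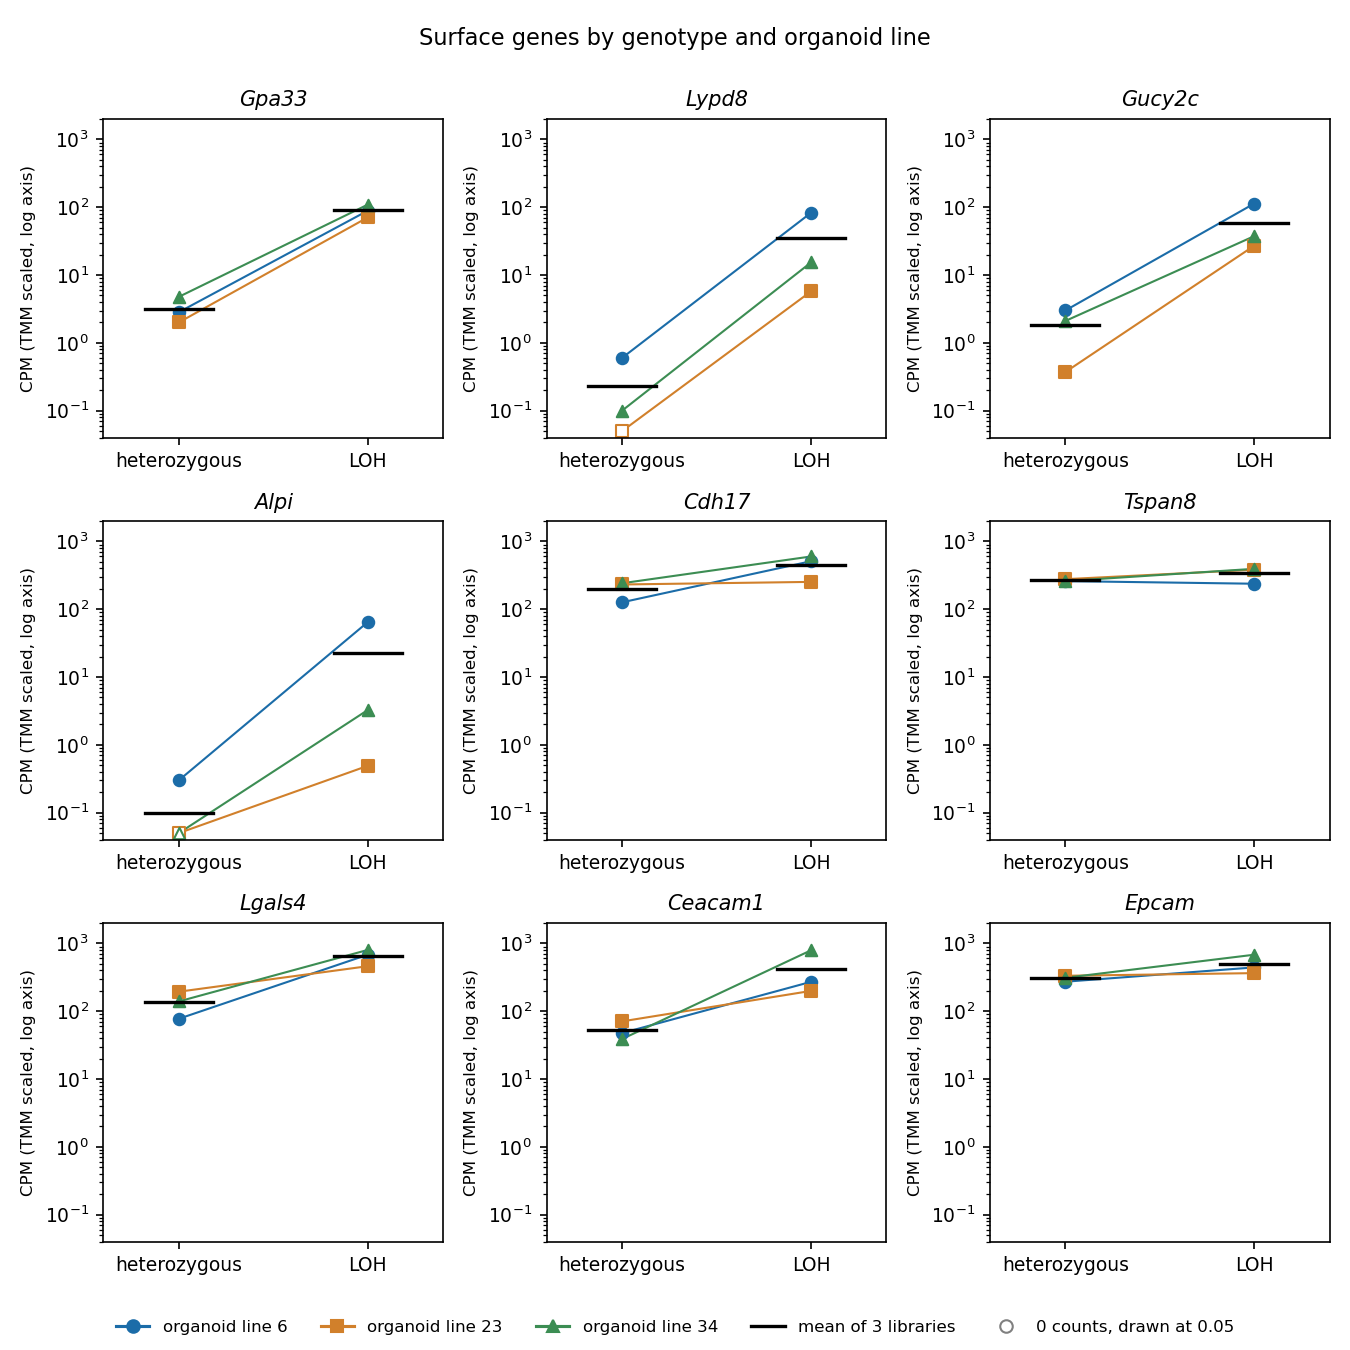
TMM-scaled CPM on a log axis (vertical) in heterozygous and LOH organoids (horizontal) for the 9 genes, with 1 marker and line per organoid line and black bars for the mean of 3 libraries. Open markers are libraries with 0 counts; Lypd8, Gucy2c, Gpa33 and Alpi stay under 5 CPM in every heterozygous library, while Tspan8 and Epcam stay near the top of the scale throughout.

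The rule that chose the genes used this contrast, so the following counts are given as a description. With edgeR's quasi-likelihood test across 14537 tested genes, 5 of the 9 (Gpa33, Lypd8, Gucy2c, Lgals4 and Ceacam1) had an adjusted p under 0.05, where 5.21% of all tested genes did and 3.55% were higher in LOH. The remaining 1.66% were lower. In the paired fit, which takes the organoid line as a block, 4 of the 9 did (Gpa33, Lypd8, Gucy2c and Alpi), where 1.47% of all tested genes did, 1.22% higher and 0.248% lower. With DESeq2 7 of the 9 did, where 14.1% of the genes it tested did, 8.87% higher and 5.28% lower. Every LOH library exceeded every heterozygous one in CPM for 8 of the 9, and for 16.4% of all tested genes. The median log2 fold change of the 8 genes without Epcam was 3.89, and that of all tested genes was 0.06.

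The direction depended on the scale for Tspan8, and in line 23 for Cdh17 and Epcam. In TPM, the deposited abundance that divides by transcript length and gives every library the same total, the median tested gene was 0.36 lower in LOH on the log2(TPM + 0.1) scale, against 0.02 higher in TMM-scaled log2 CPM. In TPM, Epcam and Cdh17 in line 23 both had a ratio of LOH to heterozygous of 0.91, and the mean TPM of Tspan8 was 292 in heterozygous and 281 in LOH libraries. Relative to the median shift, the log2(TPM + 0.1) differences were 1.11 for Cdh17, 0.62 for Epcam and 0.28 for Tspan8. In TPM the groups of 6 of the 9 genes did not overlap, where all LOH libraries were higher for 7.41% of all tested genes; Cdh17, Tspan8 and Epcam overlapped.

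Because TPM allows levels of different genes to be set side by side, it gives the order of the surface genes within a library. Mean TPM in heterozygous organoids was 292 for Tspan8, 183 for Epcam, 127 for Lgals4, 67.0 for Cdh17 and 21.5 for Ceacam1. The ranges over the 3 libraries of these 5 neighbours in the order did not overlap. Then came Gpa33 at 1.68, Gucy2c at 0.573, Lypd8 at 0.307 and Alpi at 0.06 TPM, each of which overlapped the next. In LOH organoids Lgals4 came first at 470 TPM, above the range of the second, Tspan8 (281 TPM). Tspan8, Epcam (224 TPM) and Ceacam1 (121 TPM) each overlapped the next in the order, down to Cdh17 (118 TPM). The range of Cdh17 (65.89 to 145.61 TPM) did not overlap that of Gpa33 (26.94 to 39.55 TPM). Gpa33 (34.8 TPM), Lypd8 (29.9 TPM) and Gucy2c (14.0 TPM) each overlapped the next, down to Alpi (9.76 TPM). The summed TPM of the 8 genes without Epcam was 481, 553 and 498 in heterozygous lines 6, 23 and 34 and 1167, 818 and 1250 in LOH lines 6, 23 and 34.

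Set against Epcam in the same library, Lgals4 transcripts were at 69.8% ± 24.3 (SD, n = 3) of Epcam in heterozygous and 211% ± 31.6 (SD, n = 3) in LOH libraries. Gpa33 was at 0.922% ± 0.441 and 15.7% ± 1.65 (SD, n = 3 each), and Ceacam1 at 11.7% ± 3.6 and 50.6% ± 21.6. Cdh17 was at 36.8% ± 9.19 and 51.8% ± 13.1, and Tspan8 at 160% ± 12.5 and 132% ± 51.7, both with overlapping groups. The 3 genes with the widest spread in LOH for their mean were Lypd8 at 13.3% ± 17.2, Gucy2c at 6.36% ± 5.49 and Alpi at 4.37% ± 7.12 of Epcam, since LOH line 6 exceeded the other LOH lines in each of them. This ratio does not depend on the scaling between libraries.

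**Figure D2:**
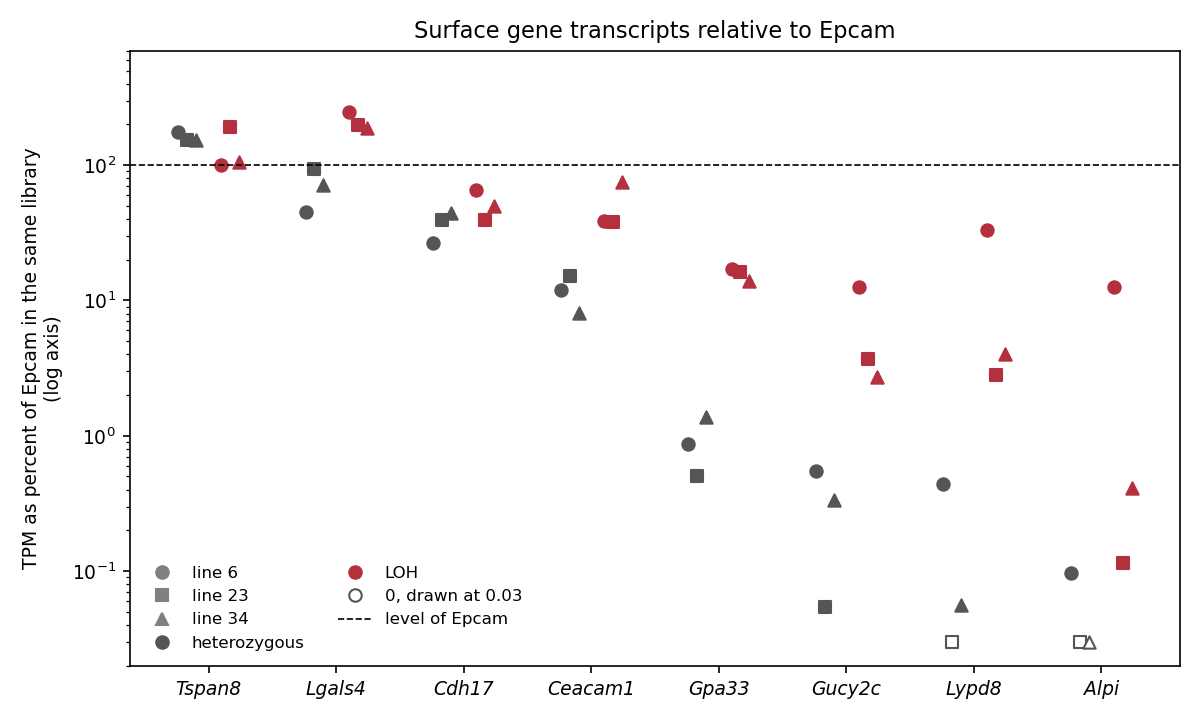
TPM of each gene as a percent of Epcam in the same library (vertical, log axis) for the 8 other surface genes (horizontal), with grey markers for heterozygous and red for LOH libraries, marker shape for the organoid line and a dashed line at the level of Epcam. Lgals4 lies above Epcam in the 3 LOH libraries and below it in the 3 heterozygous ones; Alpi reaches 10% of Epcam or more in none but LOH line 6.

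The lines did not share 1 ranking. LOH line 6 was the highest LOH library for Lypd8, Gucy2c and Alpi, and LOH line 34 for Gpa33, Cdh17, Tspan8, Lgals4, Ceacam1 and Epcam. LOH line 23 was the lowest LOH library for 8 of the 9 genes, the exception being Tspan8, which was lowest in LOH line 6. Over the 6 libraries, each gene's log2 CPM centred on its mean was compared with that of 12669 genes averaging 1 CPM or more, by the root mean square difference, a description that the 2 groups dominate. The gene most like Lypd8 was Isx, an intestinal homeobox factor, with a difference of 0.64. Gpa33 and Gucy2c were both most like Rbm11, at 0.40 and 0.51, and Alpi was most like Prap1, at 0.50. For the abundant genes the most similar profiles were those of Gatsl3 (Cdh17, 0.10), Traf3ip2 (Tspan8, 0.04), Pip5k1b (Lgals4, 0.23) and Glrp1 (Ceacam1, 0.34). Small changes leave small differences, so these values are not comparable between genes. Within the group, Lypd8 differed from Gucy2c by 0.96 and from Alpi by 1.14. Gpa33 differed from Gucy2c by 0.90, and Cdh17 and Tspan8 differed from Epcam by 0.40 and 0.36.

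Transcript shares, which the choice of genes did not use, were read from the deposited RSEM transcript tables. Ceacam1 is made with a long cytoplasmic tail that carries inhibitory tyrosine motifs or with a short tail that lacks them. The long form, Ceacam1-203, encodes 521 amino acids. It took 8.37%, 17.5% and 11.4% of Ceacam1 transcripts in heterozygous lines 6, 23 and 34 and 3.97%, 5.4% and 8.02% in LOH lines 6, 23 and 34. The groups did not overlap, although heterozygous line 6 and LOH line 34 nearly touched. The forms of 458 amino acids, which have the short tail, took 62.8% ± 8.39 and 72.6% ± 6.2 (SD, n = 3 each), with overlapping groups. A form of 278 amino acids took a further 10.7% ± 5.33 and 12.8% ± 3.82 (SD, n = 3 each). Its tail was not classed here, so the shares of the 458 amino acid forms are not a total of all short-tail transcripts. In TPM the forms of 458 amino acids were 6.71-fold higher in LOH and the long form 2.87-fold higher.

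Gpa33 transcripts were divided mainly between 2 starts that encode the same 319 amino acids. Gpa33-202, which starts at base 166130238 of chromosome 1, took 60.4%, 57.2% and 62.8% in heterozygous lines 6, 23 and 34 and 84.6%, 85.4% and 64.2% in LOH lines 6, 23 and 34. LOH lines 6 and 23 were well above the heterozygous range and LOH line 34 just above it. Gpa33-204, with a start at base 166130467, took 36% ± 9.1 and 16.8% ± 11.8 (SD, n = 3 each), and its groups overlapped. The heterozygous shares of Gpa33 rest on as few as 27 counts in line 23. Over the 9 transcripts with a mean share of at least 5% in both groups, from genes with at least 20 counts in every library, the smallest exact permutation p (two-sided) was 0.1, for Ceacam1-203 and Gpa33-202. That is also the smallest p that 3 against 3 libraries can give, and its Benjamini-Hochberg value was 0.45. The main Lgals4 transcript, of 326 amino acids, took 92.2% ± 1.2 in heterozygous organoids and 92.8% ± 1.08 in LOH (SD, n = 3 each). The second most abundant Tspan8 transcript took 38.4% of Tspan8 in LOH line 34 and between 13.4% and 20.5% in the other 5 libraries, and encodes the same 235 amino acids as the other main forms.

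**Figure D3:**
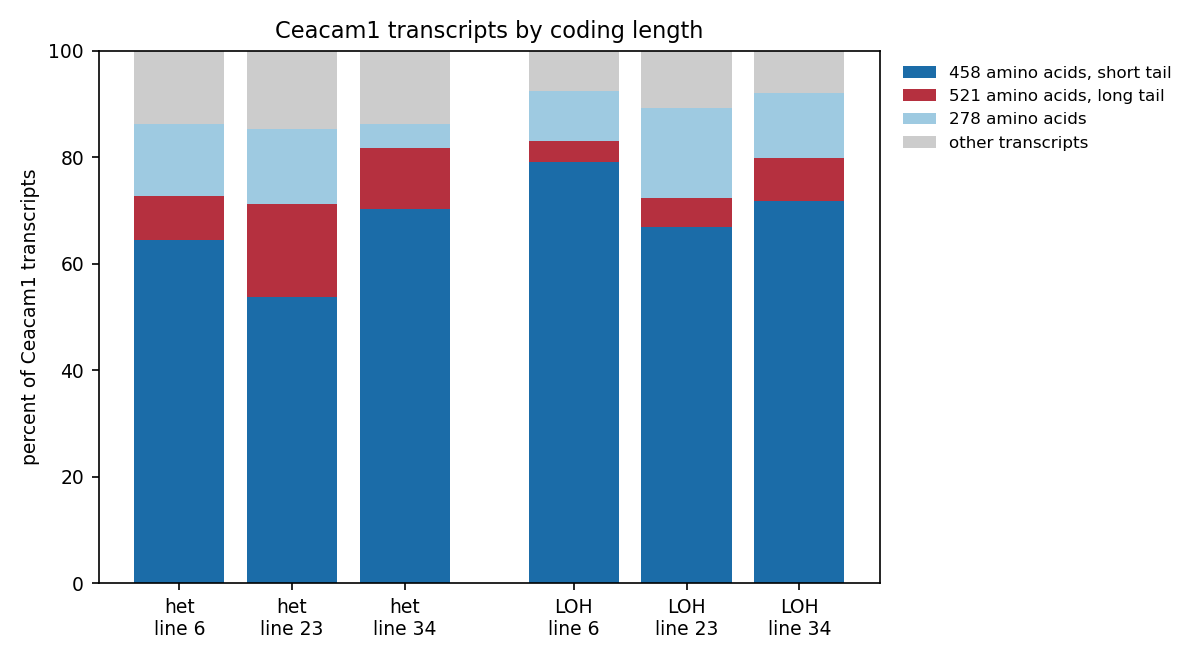
Percent of Ceacam1 transcripts (vertical) by coding length in each of the 6 libraries (horizontal), as stacked bars from 0 to 100. The red part, the long-tail form of 521 amino acids, is 8.37% to 17.5% in heterozygous and 3.97% to 8.02% in LOH libraries.

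The pathway around Gucy2c was read from 20 other genes, listed by role. The peptides that activate the receptor, Guca2a (guanylin) and Guca2b (uroguanylin), reached at most 0.175 CPM each in any library, at or near the floor. Of the 10 pathway genes with enough counts, 2 rose in LOH and 0 fell, where 5.21% of all tested genes changed, and the list's median log2 fold change was 1.02. Both are phosphodiesterases that break down cyclic GMP, the messenger that Gucy2c makes. Pde9a was at 2.47, 4.38 and 4.77 CPM in heterozygous lines 6, 23 and 34 and at 41.1, 33.4 and 49.5 CPM in LOH lines 6, 23 and 34, a log2 fold change of 3.42 (SE 0.32, adjusted p = 0.0106, edgeR). Pde5a had a log2 fold change of 1.46 (SE 0.23, adjusted p = 0.025, edgeR).

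Downstream of the receptor, Prkg2, the cyclic GMP-dependent kinase of gut epithelium, was at 4.0, 3.04 and 20.1 CPM in heterozygous lines 6, 23 and 34 and at 24.5, 39.8 and 389 CPM in LOH lines 6, 23 and 34. Every LOH library exceeded every heterozygous one, but LOH line 34 stood far above the rest. Its log2 fold change was 4.05 (SE 1.29, adjusted p = 0.11, edgeR). Cftr, the chloride channel that this kinase opens, was at 16.6, 2.67 and 5.51 CPM in heterozygous and 92.2, 50.2 and 38.9 CPM in LOH lines 6, 23 and 34, a log2 fold change of 2.86 (SE 0.69, adjusted p = 0.0602, edgeR). Slc9a3, the sodium-proton exchanger that the pathway inhibits, reached at most 0.113 CPM. With the line as a block 3 of the 10 rose: Pde9a (adjusted p = 0.0318, edgeR), Prkg2 (0.0341) and Cftr (0.0431), while Pde5a had 0.0696. In that fit 1.22% of all tested genes rose and 0.248% fell. Over all alternatives the adjusted p was 3.11e-18 to 0.143 for Pde9a, 2.02e-05 to 0.191 for Pde5a, 0.0258 to 0.325 for Prkg2 and 0.000148 to 0.25 for Cftr. Leaving out heterozygous line 6, 23 or 34 left 0 calls in this list and 0 among all genes in edgeR, and the lists below share this. At an unadjusted p under 0.05 these fits held 2966, 2637 and 2272 genes, and DESeq2 on all libraries called 2262. Without LOH line 6, 3 were called.

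**Figure D4:**
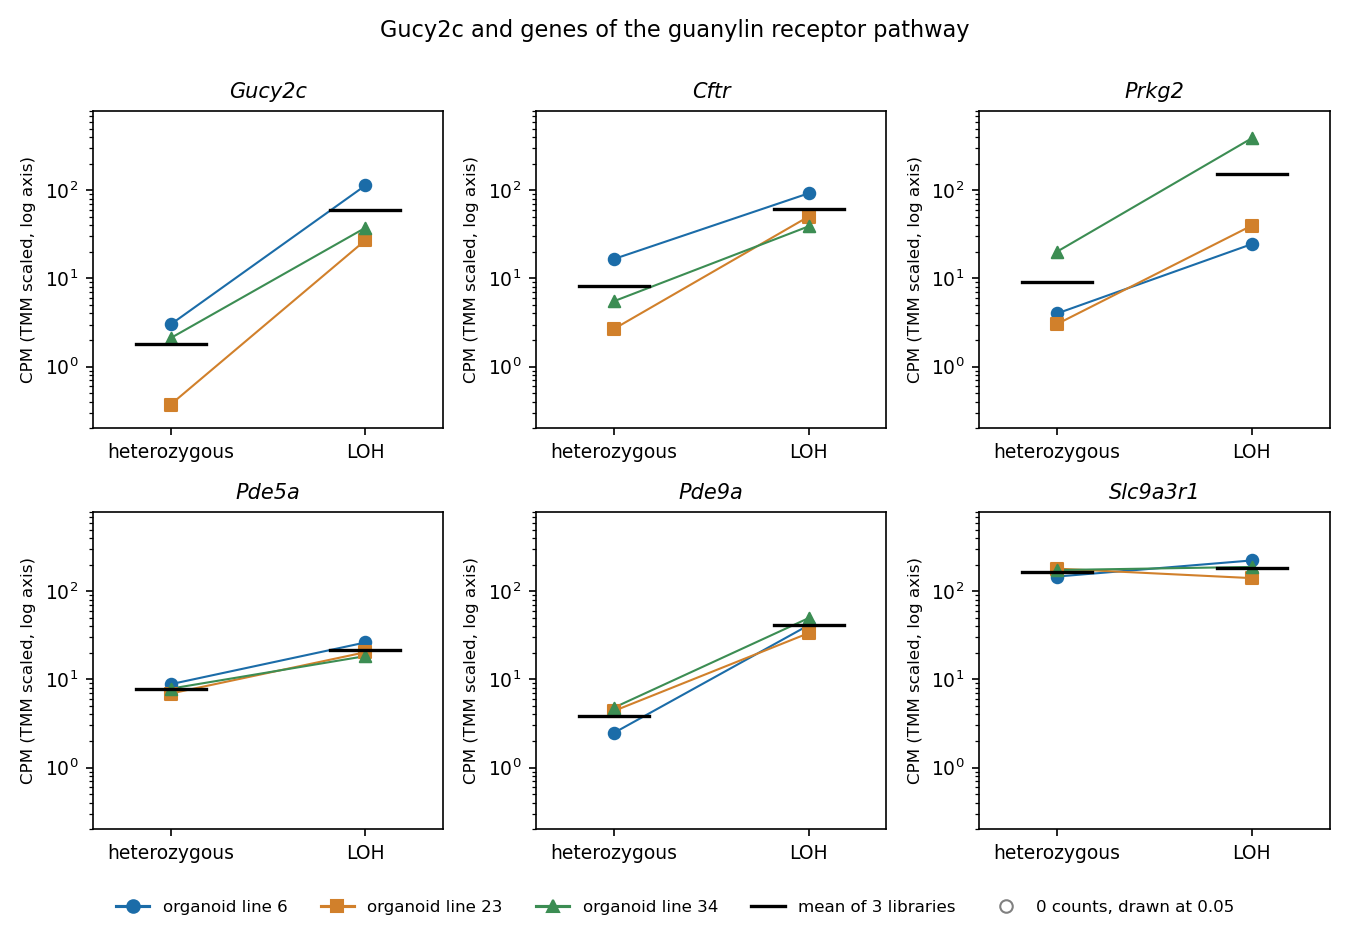
TMM-scaled CPM on a log axis (vertical) in heterozygous and LOH organoids (horizontal) for Gucy2c and 5 genes of its pathway, with 1 marker and line per organoid line and black bars for the mean. Pde9a and Pde5a separate tightly by group, Prkg2 is highest in line 34 in both groups, and Slc9a3r1, a scaffold protein, lies between 141 and 223 CPM throughout.

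Other intestinal-type surface proteins moved in both directions. Of 40 listed, 18 could be tested. In LOH 3 rose and 1 fell (22.2% called, where 5.21% of all tested genes were), with a median log2 fold change of 1.53. The list, like the others, was chosen with earlier results of these data known. Genes scarce in heterozygous organoids, such as Muc13 with 3, 7 and 7 counts in lines 6, 23 and 34, passed the count filter through their LOH libraries. The share and the median are therefore a description. Muc13, a membrane mucin, was at 0.1, 0.519 and 0.234 CPM in heterozygous and 15.2, 40.2 and 21 CPM in LOH lines 6, 23 and 34 (log2 fold change 6.64, SE 0.67, adjusted p = 0.0109, edgeR). Cdhr2 (log2 fold change 3.7, SE 0.57, adjusted p = 0.0229, edgeR) and Cdhr5 (3.2, SE 0.63, adjusted p = 0.0385), the protocadherins that link microvilli of the brush border, also rose. Slc6a19, a brush-border amino acid transporter, fell by 2.77 on the log2 scale (SE 0.44, adjusted p = 0.0246, edgeR). With the line as a block 4 rose and 0 fell (Muc13, Cdhr2, Tm4sf5 and Cftr, which the pathway list also holds). Tm4sf5, with 17, 0 and 1 counts in heterozygous lines 6, 23 and 34, also passed the count filter through its LOH libraries. In the block fit 1.22% of all tested genes rose and 0.248% fell. Cdhr5 (0.0941) and Slc6a19 (0.0696) missed the threshold in that fit, and over all alternatives their adjusted p ran from 3.64e-06 to 0.202 and from 1.53e-05 to 0.162. Without LOH line 23, 3 rose and 3 fell. Of the list, 17 genes stayed under 1 CPM in every library.

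Close relatives of the 9 genes by protein family were listed as well. Of 79 named, 78 were found (Lgals6 was not matched) and 59 could be tested. In edgeR 10 rose and 2 fell (20.3% called, where 5.21% of all tested genes were), with a median log2 fold change of 0.49. Ceacam18, with 1, 0 and 0 counts in heterozygous lines 6, 23 and 34, passed the count filter through its LOH libraries. This share and median are therefore a description. With the line as a block 3 rose and 1 fell, where 1.22% of all tested genes rose and 0.248% fell. Beside Gpa33, its relative Vsig1, a junctional protein of the stomach, rose by a log2 fold change of 2.13 (SE 0.28, adjusted p = 0.0164, edgeR). Beside Lypd8, the Ly6-type protein Psca had 2.88 (SE 0.47, adjusted p = 0.0267). Among cadherins, set beside Cdh17, the desmosomal Dsc2 had 3.19 (SE 0.42, adjusted p = 0.0164) and Cdh6 fell by 4.62 (SE 0.56, adjusted p = 0.0164, edgeR). Beside Tspan8, the tetraspanins Tspan1 and Tspan12 had log2 fold changes of 2.53 (SE 0.39, adjusted p = 0.0225) and 1.36 (SE 0.17, adjusted p = 0.0164, edgeR). Tspan4 fell by 0.92 (SE 0.18, adjusted p = 0.0352, edgeR) and missed the threshold with the block (0.125). Of the 21 tetraspanins tested 4 rose and 1 fell in edgeR, and their median log2 fold change was 0.12. With the block Psca (0.0721), Tspan1 (0.0675) and Tspan12 (0.0667) missed the threshold, where their adjusted p over all alternatives was 4e-06 to 0.171, 9.52e-08 to 0.149 and 8.93e-08 to 0.147.

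Of 30 shared epithelial surface genes, all of which could be tested, 2 rose and 0 fell in edgeR (6.67% called), close to the 5.21% of all tested genes, with a median log2 fold change of 0.24. They were Dsc2, which the list above also holds, and Marveld3, a tight junction protein, at 1.11 (SE 0.24, adjusted p = 0.0481, edgeR). With the block 1 was called, where 1.47% of all tested genes were. Marveld3 had 0.115 with the block, and its adjusted p over all alternatives ran from 0.00424 to 0.262. Without LOH line 6, 4 rose and 1 fell. Cldn7, a claudin that binds Epcam, was at 120, 124 and 121 CPM in heterozygous and at 142, 121 and 158 CPM in LOH lines 6, 23 and 34, and did not pass the test (log2 fold change 0.2, SE 0.17).

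**Figure D5:**
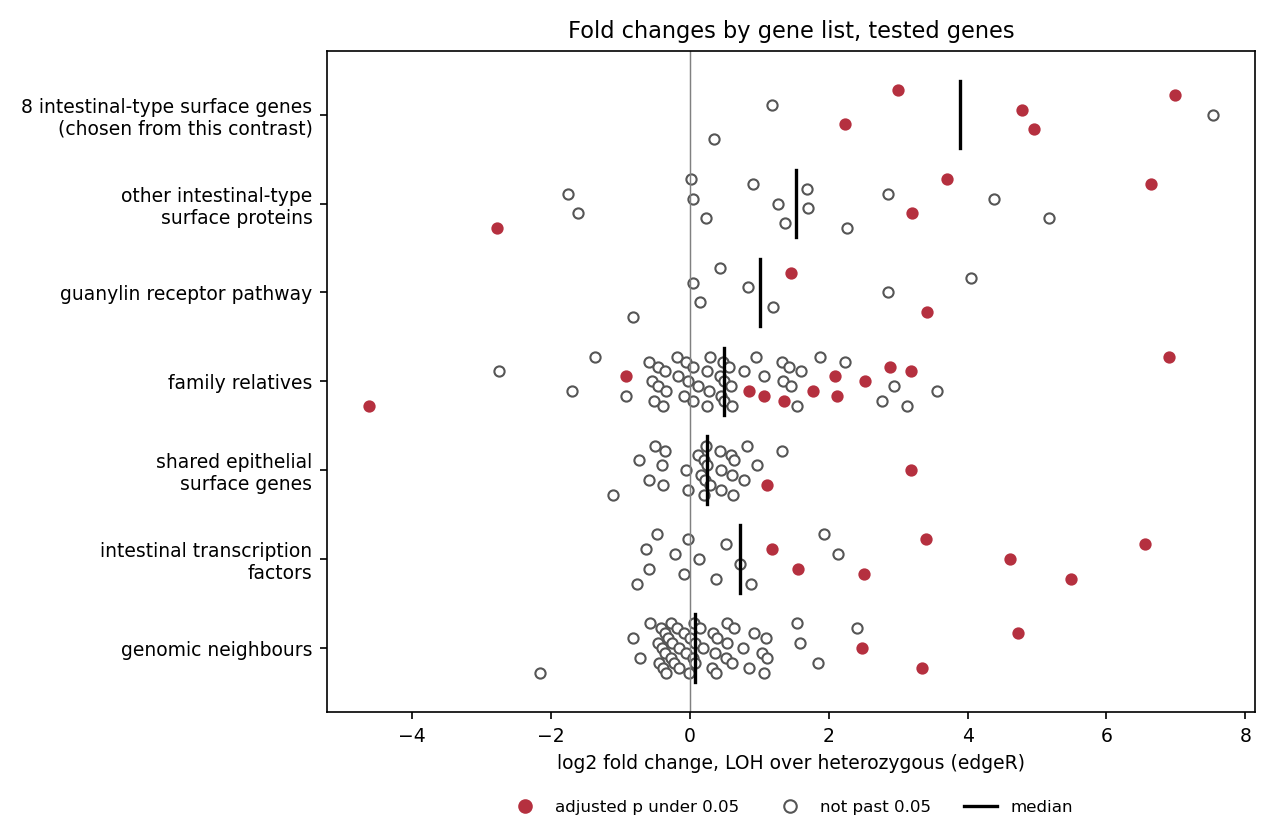
Fitted log2 fold change, LOH over heterozygous (horizontal), of each tested gene in the lists named at the left, with filled points for an adjusted p under 0.05 in edgeR and black bars for medians. The top row holds the 8 genes that were chosen from this contrast; medians of the other lists run from 0.08 for genomic neighbours to 1.53 for other intestinal-type surface proteins.

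Of 24 transcription factors of intestinal epithelium, 21 could be tested, and 7 rose and 0 fell (33.3% called, edgeR). Over all tested genes 3.55% rose and 1.66% fell. The list's median log2 fold change was 0.73. Isx, with 24, 3 and 11 counts in heterozygous lines 6, 23 and 34, passed the count filter through its LOH libraries. The share and the median of this list are therefore a description. Isx, whose profile was nearest to that of Lypd8, was at 0.801, 0.223 and 0.367 CPM in heterozygous and 104, 17.7 and 19.0 CPM in LOH lines 6, 23 and 34, and had a log2 fold change of 6.56 (SE 0.97, adjusted p = 0.0208, edgeR). Cdx2, the factor that sets intestinal identity, was present in both groups, at 17.1, 27.1 and 31.7 CPM in heterozygous and 70.1, 67.1 and 86.8 CPM in LOH lines 6, 23 and 34 (log2 fold change 1.56, SE 0.27, adjusted p = 0.029). Its relative Cdx1 reached at most 0.291 CPM. Hnf4g had a log2 fold change of 3.4 (SE 0.56, adjusted p = 0.0267, edgeR), while Hnf4a, at 162 to 255 CPM in all 6 libraries, had 0.13 (SE 0.22) and did not pass. The other named factors were Foxa1 (4.61), Prdm1 (5.49) and Klf4 (1.18), with adjusted p of 0.0132, 0.0228 and 0.0208. The block left 4 calls, where it called 1.47% of all tested genes. Cdx2 (0.0645), Klf4 (0.0852) and Prdm1 (0.0703) missed the threshold with the block. Their adjusted p over all alternatives was 8.48e-05 to 0.194, 7.31e-06 to 0.17 and 9.54e-05 to 0.176. Without LOH line 23, 4 were called.

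The genomic surroundings were read from the 3 nearest tested genes on each side of each of the 9 genes. Of these 54 neighbours 3 rose and 0 fell (5.56% called; edgeR), near the 5.21% of all tested genes, with a median log2 fold change of 0.08, and without LOH line 6, 5 rose and 1 fell. 2210407C18Rik lies 217476 bases after Lypd8 and was at 1.3, 0.297 and 0.367 CPM in heterozygous and 38.5, 4.0 and 12.3 CPM in LOH lines 6, 23 and 34 (log2 fold change 4.73, SE 0.99, adjusted p = 0.0443, edgeR). Like Lypd8, it was highest in LOH line 6 and lowest in LOH line 23, an order that Gucy2c and Alpi on other chromosomes also had. Ptprr, a tyrosine phosphatase gene 168320 bases after Tspan8, had a log2 fold change of 3.34 (SE 0.39, adjusted p = 0.0164, edgeR). Cnfn, 91983 bases before Ceacam1, had 2.48 (SE 0.46, adjusted p = 0.0333), which the block raised to 0.0855 and which ran from 0.00227 to 0.181 over all alternatives.

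Markers of other cells were set beside these levels. Of 10 absorptive enterocyte markers 4 could be tested and 3 rose, where 5.21% of all tested genes were called. The 3 were Krt20 (log2 fold change 3.25), Vil1 (0.92) and Rbp2 (2.96), with adjusted p of 0.00669, 0.0481 and 0.0444 (edgeR). Only Krt20 passed with the block. The summed level of the 10 markers was 117 to 155 CPM in heterozygous and 323 to 345 CPM in LOH libraries. Most of the LOH sum was Vil1, at 194 to 248 CPM, and Krt20, at up to 92.2 CPM. Of the 10, 4 stayed under 1 CPM in every library. Of the 10 markers, Sis, Fabp1 and Apoa4 were at 0 in every heterozygous library. In LOH lines 6, 23 and 34 Sis was at 0.873, 0 and 0 CPM and Fabp1 at 0.582, 0 and 0 CPM. Apoa4 was at 12.2, 0 and 0.0466 CPM there. Lct was at 0.267, 0 and 0.334 CPM in heterozygous and at 0.582, 0.189 and 0.14 CPM in LOH lines 6, 23 and 34, so it was lower in LOH line 34. Of 10 secretory markers 5 could be tested, and Clca1, of mucus-secreting cells, rose (log2 fold change 4.9) while Spink4 fell by 2.2 (adjusted p of 0.0399 and 0.0343, edgeR); with the block only Spink4 passed. LOH line 6, the library highest in Alpi, Lypd8 and Gucy2c, was the highest LOH library for 8 of the 10 enterocyte markers, most of them at low levels, although Fabp2 was level with LOH line 34 at 0.466 CPM. Krt20 was highest in LOH line 34 (92.2 CPM, against 79.2 in line 6), and Vil1 was lowest in LOH line 6 (194 CPM, against 248 in line 23).

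All 10 fibroblast markers stayed under 1 CPM in every library, with sums of 0.0742 to 0.167 CPM in heterozygous and 0.605 to 1.11 CPM in LOH libraries. Of 10 leukocyte markers only Cd68 could be tested. Its log2 fold change was 2.21 (SE 0.57, adjusted p = 0.0713, edgeR), with an unadjusted p under 0.05, and DESeq2 called it. The sums of the 10 were 1.93 to 2.4 CPM and 3.26 to 14.9 CPM. Lyz2 was at 0 in all libraries. Cd53, a leukocyte tetraspanin from the list of relatives, was at 0.534, 0.519 and 2.3 CPM in heterozygous lines 6, 23 and 34. In LOH lines 6, 23 and 34 Cd53 was at 2.33, 4.27 and 34.4 CPM. Ceacam1, which leukocytes also make, was at 199 to 791 CPM in LOH, and was highest in LOH line 34 as Cd53 was. Endothelial markers summed to 0.223 to 0.3 CPM and 0.605 to 2.91 CPM, acinar markers to 1.07 to 2.0 CPM and 1.91 to 6.3 CPM, and islet markers to at most 0.175 CPM. The part of these cells in the levels above was not tested.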

How the data were processed

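Libraries of total RNA from 6 organoid cultures were prepared with a strand-marking kit, per the labels' protocols. The submitters' processing notes name FastQC 0.11.5, STAR 2.5.2b, RSEM 1.3.0, DESeq2 1.44.0 and the genome build GRCm38.p5. The deposited expected counts are RSEM's estimates by gene and by transcript; ambiguous reads are shared out, so values need not be whole. TPM values were made by the authors for 53379 genes, and transcript percentages (percent of a gene's transcripts) were deposited in their transcript tables. A deposited normalized signal, equal to the truncated count over 1 size factor per library, was used only for gene names (23525 genes). The strand setting used in counting is not given in the sources used here.

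Groups and line numbers come from the titles. Expected counts were rounded, kept by filterByExpr (14537 genes), scaled by TMM and compared in edgeR 4.0.16 by its quasi-likelihood test (two-sided, Benjamini-Hochberg over all tested genes, threshold 0.05). CPM use TMM-scaled library sizes, and log2 CPM a prior count of 2. A standard error is the log2 fold change over the square root of the F statistic. Within-line ratios have exact 95% intervals from the 2 counts. Coordinates and coding lengths come from GENCODE mouse release M21 (GRCm38). RefSeq promoters (GRCm38.p6) matched 7 of the 9 genes, not Gucy2c or Cdh17. Alternatives were RLE scaling, no filter, the line as a block, DESeq2 1.42.0, and each library or line left out.

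The members, the lists and the rule for named genes were chosen with earlier results of these data known. By that rule, the 9 genes, the ligands, effectors and close relatives given in the text were named whatever their values, and in each list up to 6 genes with the smallest p among those past the threshold. The markers of other cells, promoters and transcripts that are named singly, and Tm4sf5, Ceacam18, Tspan4 and Cd53, were chosen after their values were seen.

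The number in a title names the organoid line, which pairs a heterozygous with an LOH library. Over genes, the deviations of paired libraries from their group means correlated at -0.3, 0.0094 and 0.29 within lines 6, 23 and 34, and from -0.39 to 0.3 between lines. The fits were tested on simulated data before use. Some items in the labels and lists are not reported here.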

Additional observations from a re-analysis of the deposited data

Results flagged for a closer look

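For 3 genes the lines moved in opposite directions between heterozygous and LOH libraries, and these differences between lines were not tested. The log2 CPM difference of Tspan8 for lines 6, 23 and 34 was -0.13, 0.46 and 0.6, a span of 0.73. Cldn7, the claudin that binds Epcam, had 0.24, -0.03 and 0.38, a span of 0.42. Hnf4a had 0.5, -0.1 and -0.12, a span of 0.62. With 1 library per line and genotype, the spread of a repeat culture is not known.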

How the results depend on the processing

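All 116 alternative fits of the 9 genes' fold changes kept their direction. In 109 the value moved by less than 1 SD of the within-line log2 differences, and in 103 by less than the printed SE; Ceacam1 fell to 1.99 without line 34 in both groups. The 7 moves past that SD touch Lypd8 (5.25 to 8.88), Alpi (3.92 to 11.94), Gucy2c and Gpa33, each with a library left out. With LOH line 34 and heterozygous line 34 both removed, Alpi could not be fitted, as it fell below the filter. Counts of calls were less stable. Over all genes, 757 were called in edgeR, 213 with the replicate block (line as block) and 2262 with DESeq2; leaving out libraries gave 0 to 2449, and leaving out line 6 from both groups 1422. Other intestinal-type surface proteins had 4, with 7 without the filter, 9 with DESeq2 and 0 to 6 with libraries left out. The guanylin pathway had 2, with 5 by DESeq2 and 0 to 3 with libraries left out. Family relatives had 12, with 4 under the block, 22 by DESeq2 and 0 to 14 with libraries left out. Shared epithelial surface genes had 2, with 1 under the block, 4 by DESeq2 and 0 to 5 with libraries left out. Transcription factors had 7, with 4 under the block, 10 by DESeq2 and 0 to 8 with libraries left out. Neighbours had 3, with 8 by DESeq2 and 0 to 6 with libraries left out. The cause of these moves was not tested. The block changed no other call given in the text than those named beside it. Depth limits Alpi, Lypd8 and Gucy2c in heterozygous organoids, where 0 to 90 counts were read.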
